A study of Homo sapiens with 12 samples.

Results

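The complement system is described here through 9 genes, C1R, C1S, C3, CFB, CFI, SERPING1, CD46, CD55 and CD59, in cultures of A172 cells with and without overexpression of hHSS1. A172 is a cell line grown from a human glioblastoma. The genes were taken by symbol, each through the probe set that the platform annotation gives to that gene alone, and they are 9 of 18417 genes that could be read in this way. All 9 had such a probe set. CFB had 3, of which the brightest was kept, and the other 8 genes had 1 each.

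The 12 arrays (Affymetrix GeneChip Human Gene 1.0 ST) carried 4 groups of 3 cultures, harvested 4 days after plating. Clone 7 and clone 8 were stably transfected with pcDNA3.1 carrying hHSS1 with a C-terminal His tag, the mock line was stably transfected with empty pcDNA3.1, and wild-type cells were not transfected. hHSS1 is now named EMC10. By the study's methods, stable clones were kept under G-418, the selection drug of this vector. Each clone and the mock line is a single transfected line, so p-values measure the spread between cultures of these lines and not between lines made anew. The mock line differs from wild-type cells in the vector, in selection and in being a line of its own, and these cannot be told apart.

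Complement is a cascade of plasma and tissue proteins that marks cells for removal and can pierce their membranes. The proteases C1r and C1s start the classical pathway, and all pathways meet in the cleavage of C3, whose fragment C3b binds factor B to form the enzyme that cleaves more C3. Regulators hold the cascade in check. Factor I cuts C3b and C4b with the help of cofactors, C1 inhibitor (SERPING1) blocks C1r and C1s, CD46 is a membrane cofactor for factor I, CD55 takes apart the enzymes that cleave C3, and CD59 blocks the final pore. The liver makes most plasma complement, and astrocytes and glioma cells are known to make several components too. CD55 and CD59 are held on the membrane by a glycosylphosphatidylinositol (GPI) anchor.

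The bases before the transcription start of 3 members are shown. CFI was taken as the member that differed between the clones and mock. CFB and C1R were taken because their 3 highest clone levels were on the same arrays as those of CFI. Each run holds 250 bases before a RefSeq start (GRCh38.p14), 5′ to 3′ on the gene's strand. Capitals mark matches to 4 motifs searched on both strands, with no match overlapping another in these windows.
CFI, chr4:109802000-109802249, minus strand: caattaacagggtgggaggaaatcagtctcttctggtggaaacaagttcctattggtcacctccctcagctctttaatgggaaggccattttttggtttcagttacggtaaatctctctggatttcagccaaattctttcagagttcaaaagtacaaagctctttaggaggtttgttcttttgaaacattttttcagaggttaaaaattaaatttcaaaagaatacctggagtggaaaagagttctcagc
CFB, chr6:31945845-31946094, plus strand: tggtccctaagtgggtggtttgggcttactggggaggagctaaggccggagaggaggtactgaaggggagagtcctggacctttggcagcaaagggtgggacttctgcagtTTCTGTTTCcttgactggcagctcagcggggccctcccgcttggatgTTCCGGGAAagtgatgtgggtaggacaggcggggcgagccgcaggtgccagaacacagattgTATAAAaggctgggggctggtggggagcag
C1R, chr12:7091894-7092143, minus strand: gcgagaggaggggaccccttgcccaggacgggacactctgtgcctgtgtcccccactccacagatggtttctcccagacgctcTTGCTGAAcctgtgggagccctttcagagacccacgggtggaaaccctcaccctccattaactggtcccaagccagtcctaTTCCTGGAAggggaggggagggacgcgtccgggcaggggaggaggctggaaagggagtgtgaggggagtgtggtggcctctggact
The CFB window held the core of an ISRE (GAAANNGAA, from the element of interferon-stimulated genes, here on the other strand) with its first base at position -139, a GAS element (TTCNNNGAA, a STAT site) at position -92 and a TATA box (TATAAA) at position -30, where -1 is the last base before the start. The C1R window, which is the second of 2 RefSeq starts, held a C/EBP motif (TTGCNNAA) at position -167 and a GAS element at position -86. The window of the first C1R start, not shown, held a C/EBP motif at position -106 and no GAS element. The CFI window held none of the 4. Of 35116 windows of this length, 6.57% held GAS, 6.88% the ISRE core, 9.05% C/EBP and 10.7% the TATA box. RefSeq windows were at hand for 6 of the 9 genes (11 windows), and CFB, C1R and CD59 were the 3 with a match. A match is a run of letters, and factor binding was not measured.

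hHSS1 (EMC10) was read first, as a check of the labels. Its log2 levels were 11.57, 11.72 and 12.30 in clone 7 and 12.13, 12.18 and 11.75 in clone 8, against 9.20, 9.33 and 9.51 in mock and 11.13, 10.43 and 10.69 in wild-type cells. Every clone array was above every control array, and every mock array was below every wild-type array. The clones were 6.04-fold above mock (log2 2.59 ± 0.18 SE, limma adjusted p = 7.82e-06), and mock was 2.65-fold below wild-type (log2 -1.40 ± 0.20, limma adjusted p = 0.00285). Of 5 markers of the cell line, VIM, NES, CD44 and FN1 were above the array median on all 12 arrays, and SOX2 on 5. Of 6 astroglial markers, GFAP was above it on 10 and S100B, AQP4 and SLC1A2 were below the lower quartile on all 12. Markers of other cell types went both ways, with AIF1 (microglia), ALB (liver), PECAM1 (endothelium) and DCN (fibroblasts) below the lower quartile on all 12 arrays and CD68 (leukocytes and microglia), APOA1 (liver), COL1A1 and COL1A2 (fibroblasts) above the median on all 12. Array medians lay between 8.60 and 8.67 and lower quartiles between 7.00 and 7.12. In whole cultures, fewer cells with a transcript and less of it per cell cannot be told apart.

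Likeness between the clone arrays did not fully follow their clone labels, and whether any label is wrong was not tested. Over 18408 genes without the members, the array labelled clone 7 replicate 3 was most like clone 8 replicate 2 (Pearson r = 0.9983 across genes) and less like clone 7 replicates 1 and 2 (r = 0.9913 and 0.9907). The array labelled clone 8 replicate 3 was most like clone 7 replicate 1 (r = 0.997) and less like clone 8 replicates 1 and 2 (r = 0.9883 and 0.9876). Clone 8 replicates 1 and 2 were both most like clone 7 replicate 3, and each mock and wild-type array was most like an array of its own group. Genes are not independent replicates, and the labels were kept as given. With 3 arrays a clone, mean differences that pool both clones are the same whichever clone label each of the 6 arrays bears. Their standard errors and p-values are not, because limma took the spread within groups as labelled, and this holds for every comparison. In the clones against mock, 1175 genes passed the adjusted p with all arrays. Without both arrays labelled replicate 3, 2416 did. With 1 clone array left out, 756, 781 and 1456 did without clone 7 replicates 1, 2 and 3 in turn. Without clone 8 replicates 1, 2 and 3 in turn, 1196, 2111 and 1448 did. How much of these changes is due to the labels was not tested. Differences of the members between a single clone and mock were computed with and without both arrays labelled replicate 3. Other values for a single clone, group means and those of genes that are not members included, rest on all its arrays as labelled.

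**Figure D1:**
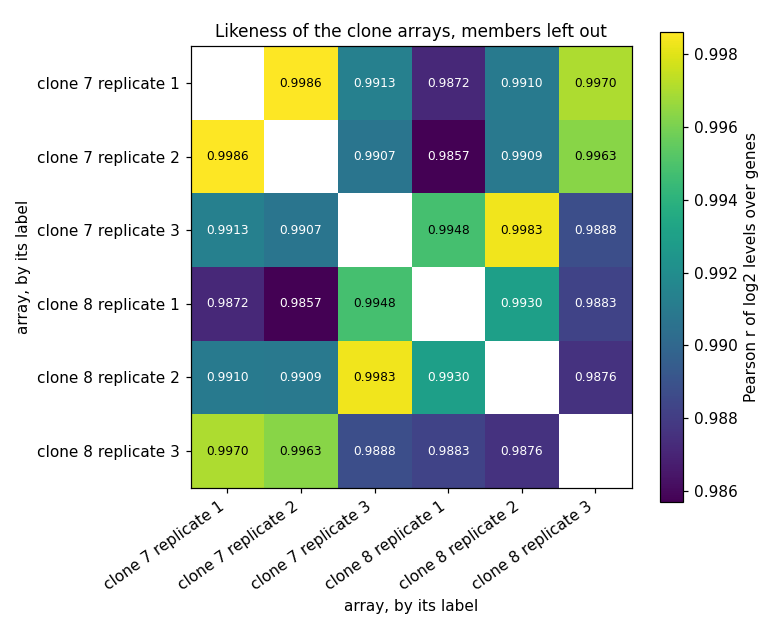
Pearson r of log2 levels between each pair of the 6 clone arrays, over 18408 genes, with arrays named by their labels on both axes. The array labelled clone 7 replicate 3 pairs with clone 8 replicate 2 (0.9983), and the array labelled clone 8 replicate 3 with clone 7 replicate 1 (0.997).

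Genes are called higher or lower where limma gave an adjusted p under 0.05 and the fold was at least 1.5. Differences are given on the log2 scale with their standard errors.

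In the clones against mock, the comparison that asks what differs with hHSS1 overexpression, CFI was called lower and none of the other 8 members was called, so that 1 of 9 members passed both limits, beside 0.728% of all genes. At the adjusted p alone, 2 members passed, CFI and CD46, both lower, beside 6.38% of all genes. The median difference of the 9 was log2 -0.03, against log2 0.01 over all genes. Against wild-type cells, C3 and CFI were called higher in the mock line and C3 in the clones.

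**Figure D2:**
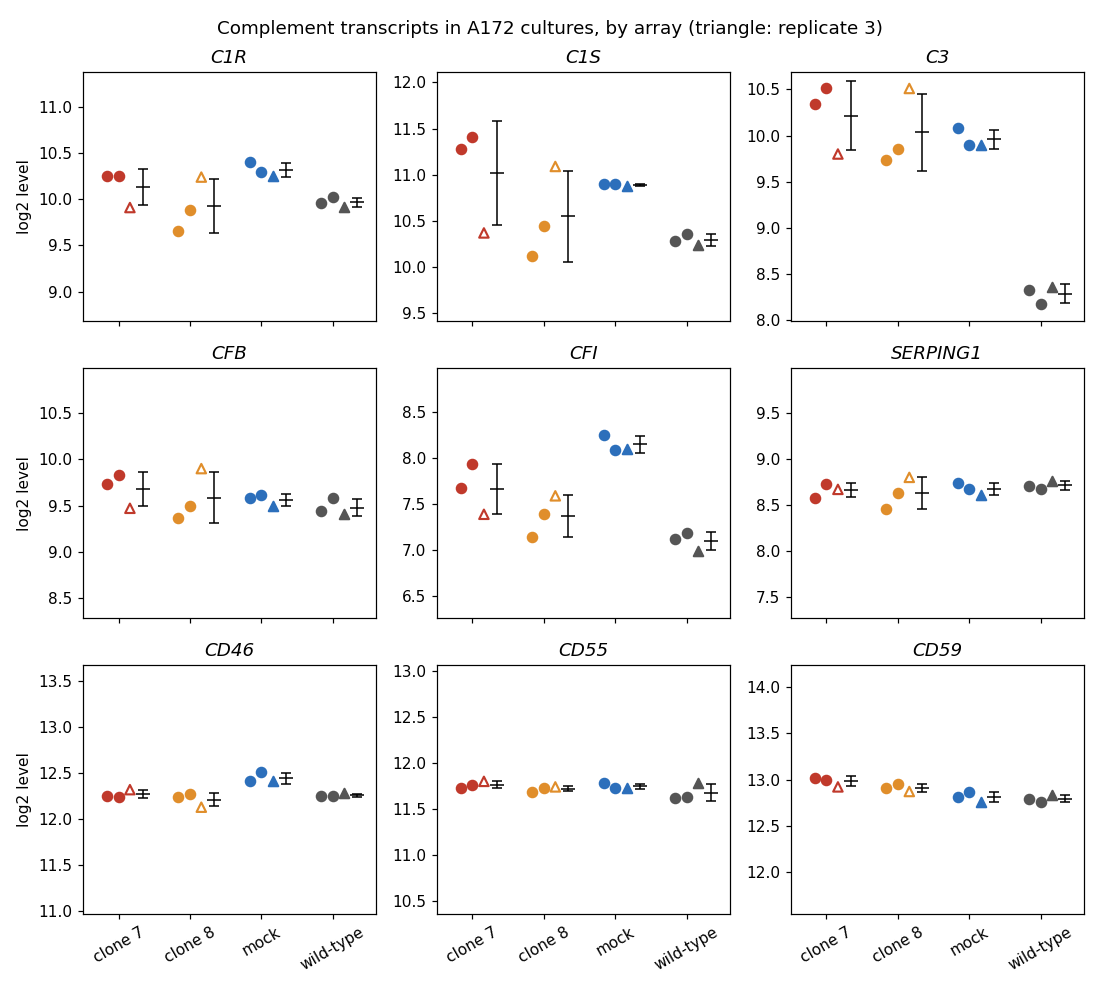
Log2 level (vertical axis) of each of the 9 members on each array, for the 4 groups along the horizontal axis. Each culture is a point, with a triangle for replicate 3 (hollow in the clones) and the mean with its SD over 3 arrays as a black bar. All panels span the same range of log2 units. C3 is lowest in wild-type cells (8.17 to 8.36), CFI is highest in mock (8.09 to 8.25), and the 3 membrane regulators vary little.

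C1R and C1S encode the proteases of the first complement complex and lie 9186 bases apart on chromosome 12 (GRCh38.p14, C1R at 7080219 to 7092445 and C1S at 7060718 to 7071032). C1S was at 11.28, 11.41 and 10.37 in clone 7 and 10.12, 10.44 and 11.09 in clone 8, against 10.90, 10.90 and 10.88 in mock and 10.28, 10.36 and 10.24 in wild-type cells. The clone arrays lay on both sides of mock and reached down to wild-type, and they spread more widely than for any other member (SD 0.572 in clone 7 and 0.497 in clone 8, against 0.0115 in mock and 0.0605 in wild-type, n = 3 each). The clones differed from mock by log2 -0.11 ± 0.22 (95% interval -0.59 to 0.37, limma adjusted p = 0.838). All 3 mock arrays were above the 3 wild-type arrays, by log2 0.60 ± 0.26, which passed the fold but not the test (limma adjusted p = 0.355). When the mock and wild-type arrays were fitted without the clone arrays, with their wide spread, C1S was called higher in mock (log2 0.60 ± 0.05, limma adjusted p = 2.28e-05).

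C1R was at 10.25, 10.25 and 9.91 in clone 7 and 9.66, 9.88 and 10.24 in clone 8, against 10.40, 10.29 and 10.25 in mock and 9.96, 10.02 and 9.92 in wild-type cells. Mock was highest as a group, with the highest clone arrays just at its lower edge. The clones differed from mock by log2 -0.28 ± 0.11 (limma adjusted p = 0.174) and mock from wild-type by log2 0.35 ± 0.13 (limma adjusted p = 0.269), and neither passed the test. In some alternatives they did (limma adjusted p = 0.0088 to 0.481 for the clones against mock and 0.00243 to 0.621 for mock against wild-type). C1R was called in none of them in these comparisons.

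C3, the protein on which all pathways converge (chromosome 19, 6677704 to 6720650), was at 10.34, 10.51 and 9.80 in clone 7 and 9.74, 9.85 and 10.51 in clone 8, against 10.08, 9.90 and 9.90 in mock and 8.33, 8.17 and 8.36 in wild-type cells. The wild-type arrays stood apart below the other 9, and the clone arrays surrounded mock. Mock was 3.2-fold above wild-type (log2 1.68 ± 0.20, limma adjusted p = 0.000625) and the clones were 3.58-fold above it (log2 1.84 ± 0.17, limma adjusted p = 4.69e-05). These comparisons share the wild-type arrays. Between the clones and mock the difference was log2 0.16 ± 0.17 (95% interval -0.21 to 0.53, limma adjusted p = 0.663).

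CFB, which encodes factor B of the alternative pathway (chromosome 6, 31946095 to 31952084), was at 9.73, 9.83 and 9.47 in clone 7 and 9.37, 9.49 and 9.90 in clone 8, against 9.58, 9.61 and 9.49 in mock and 9.44, 9.58 and 9.41 in wild-type cells. The 4 groups overlapped. Its differences were log2 0.07 ± 0.11 in the clones against mock, log2 0.08 ± 0.13 in mock against wild-type and log2 0.16 ± 0.11 in the clones against wild-type, none past the test (limma adjusted p = 0.778, 0.908 and 0.398).

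Of the regulators in fluid, CFI encodes factor I, the protease that inactivates C3b (chromosome 4, 109730982 to 109801999). It was at 7.67, 7.93 and 7.39 in clone 7 and 7.14, 7.39 and 7.59 in clone 8, against 8.25, 8.09 and 8.10 in mock and 7.12, 7.19 and 6.99 in wild-type cells. All 6 clone arrays were below the 3 mock arrays, and all 3 mock arrays were above the 3 wild-type arrays. The clones were 1.55-fold below mock (log2 -0.63 ± 0.12, limma adjusted p = 0.00782). The margin over the fold limit was thin, and the difference came to log2 -0.56 without clone 7 replicate 3 and log2 -0.57 without clone 8 replicate 1, both under the limit, while without mock replicate 1 it was log2 -0.58 with limma adjusted p = 0.0583. Over all alternatives its adjusted p ranged between 0.000639 and 0.0583.

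The mock line was 2.07-fold above wild-type in CFI (log2 1.05 ± 0.13, limma adjusted p = 0.00117). The clones were 1.34-fold above wild-type (log2 0.42 ± 0.12, limma adjusted p = 0.0391), under the fold limit, and clone 8 replicate 1 lay within the wild-type range. In order of level, mock was highest, then clone 7 (mean 7.66), clone 8 (7.37) and wild-type (7.10), and the ranges of clone 7 and clone 8 overlapped, as did those of clone 8 and wild-type. CFI was below the array median on all 12 arrays and below the lower quartile on 1, and without detection calls such dim levels cannot be told from background, so the size of its fold is uncertain.

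SERPING1, the gene of C1 inhibitor (chromosome 11, 57597685 to 57614848), was at 8.58, 8.73 and 8.67 in clone 7 and 8.46, 8.63 and 8.80 in clone 8, against 8.74, 8.67 and 8.61 in mock and 8.71, 8.67 and 8.76 in wild-type cells. The 4 groups overlapped throughout. The clones differed from mock by log2 -0.03 ± 0.07 (95% interval -0.18 to 0.13, limma adjusted p = 0.874).

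Among the membrane regulators, CD46 and CD55 lie in the cluster of complement regulators on chromosome 1 (CD46 at 207752038 to 207795516, CD55 at 207321678 to 207360966), and CD59 on chromosome 11 (33703010 to 33736479). CD46 was at 12.25, 12.24 and 12.32 in clone 7 and 12.24, 12.27 and 12.13 in clone 8, against 12.41, 12.51 and 12.41 in mock and 12.25, 12.25 and 12.28 in wild-type cells. Mock stood above the other 9 arrays. The clones were 1.15-fold below mock (log2 -0.20 ± 0.05, limma adjusted p = 0.0384), past the test but under the fold limit, and lost it in some alternatives (limma adjusted p = 0.00392 to 0.23 over all of them). Against wild-type the clones differed by log2 -0.02 ± 0.05 (limma adjusted p = 0.874) and mock by log2 0.19 ± 0.06 (limma adjusted p = 0.165).

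CD59 was at 13.02, 13.00 and 12.92 in clone 7 and 12.91, 12.95 and 12.87 in clone 8, against 12.81, 12.87 and 12.76 in mock and 12.79, 12.76 and 12.83 in wild-type cells. The 6 clone arrays were above the 3 wild-type arrays, on average by log2 0.15 ± 0.05 (limma adjusted p = 0.0786). On average they were above mock by log2 0.13 ± 0.05 (limma adjusted p = 0.161), with clone 8 replicate 3 and mock replicate 2 both at 12.87. Neither difference passed the test. CD55 was at 11.73, 11.76 and 11.80 in clone 7 and 11.69, 11.73 and 11.74 in clone 8, against 11.78, 11.73 and 11.73 in mock and 11.62, 11.63 and 11.78 in wild-type cells. The groups overlapped, and the clones differed from mock by log2 -0.01 ± 0.05 (95% interval -0.12 to 0.11, limma adjusted p = 0.961).

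Past both limits, mock against wild-type had 2 of 9 members higher, C3 and CFI, beside 0.673% of all genes, and the same 2 at the adjusted p alone, beside 2.24%. The clones against wild-type had 1 of 9 higher, C3, beside 1.58% of all genes, and 2 of 9 at the adjusted p alone, C3 and CFI, beside 9.95%. Groups that did not overlap were more frequent than calls. Mock arrays lay all above wild-type for 5 members, C3, CFI, C1R, C1S and CD46, beside 28.9% of all genes apart in either direction. The clones lay all below mock for CFI and CD46, beside 14.2% of genes, and all above wild-type for C3 and CD59, beside 15.3%.

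**Figure D3:**
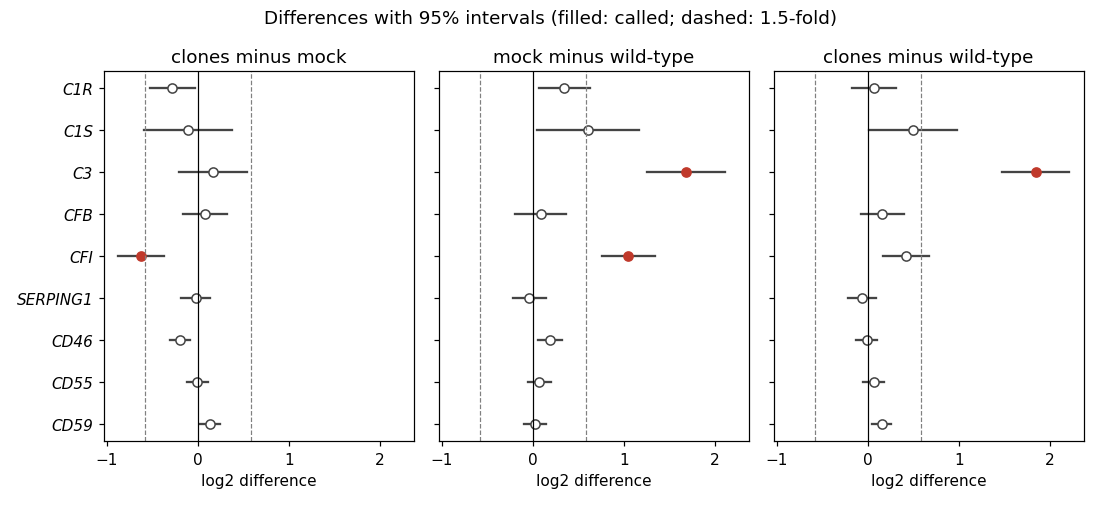
Log2 difference (horizontal axis) of each member (rows) in 3 comparisons, with 95% intervals from limma as lines, filled points for called differences and dashed lines at 1.5-fold. CFI is called lower in the clones than in mock (-0.63), C3 (1.68) and CFI (1.05) are called higher in mock than in wild-type, and C3 (1.84) in the clones than in wild-type.

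**Figure D4:**
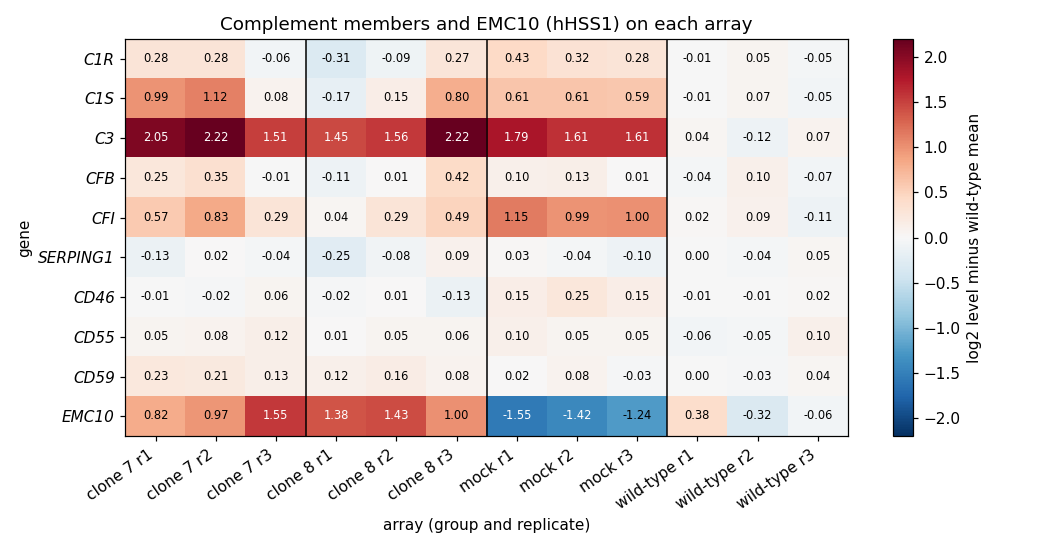
Log2 level of each member and of EMC10 (rows) on each array (columns, by group and replicate, r) minus the wild-type mean of that gene, as a colour and a number. C3 is at 1.45 or above on all 9 arrays of transfected lines, and CFI is at 0.99 to 1.15 in mock against 0.04 to 0.83 in the clones.

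The clone arrays were next read 1 by 1. C1R, C1S, C3, CFB and CFI had their 3 highest clone levels on the same arrays, those labelled clone 7 replicates 1 and 2 and clone 8 replicate 3, which was so for 5 of 9 members and for 18.4% of all genes. SERPING1, CD46, CD55 and CD59 had theirs on other sets of arrays. EMC10 was the reverse of the first 5 genes. Its 3 lowest clone levels (11.57, 11.72 and 11.75) were on the arrays where they were highest, with 12.13 to 12.30 on the others. The part of the array labels in these patterns was not tested.

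Between clone 8 and clone 7 as labelled, 0 of 9 members were called by limma, beside 0% of all genes, and the same holds at the adjusted p alone (0%), with 1328 genes at an unadjusted p under 0.05. All 9 differences were below 0, between log2 -0.47 (C1S) and log2 -0.03 (SERPING1). For C1S the 95% interval was log2 -1.03 to 0.09. Clone 7 against mock had 0 of 9 members called, beside 0.7% of all genes, and 0 at the adjusted p alone, beside 3.14%, with CFI nearest (log2 -0.48 ± 0.13, limma adjusted p = 0.0779). Clone 8 against mock had 1 called, CFI, 1.71-fold lower (log2 -0.77 ± 0.13, limma adjusted p = 0.00789), beside 0.76% of all genes. Over all genes, that comparison had 56 higher and 84 lower, and 47 higher and 110 lower when arrays were centred on their medians. At the adjusted p alone, CFI and CD46 (log2 -0.23 ± 0.06, limma adjusted p = 0.048) were lower in clone 8, beside 5.09%. CFI was called in clone 8 and not in clone 7, but the difference between the clones did not pass the test (log2 -0.29 ± 0.13, limma adjusted p = 0.62).

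Without both arrays labelled replicate 3, which leaves 2 arrays a clone and was chosen after seeing the data, C1S was at log2 0.45 ± 0.09 in clone 7 and log2 -0.62 ± 0.09 in clone 8 against mock, on opposite sides. C3 was at log2 0.46 ± 0.09 in clone 7 and log2 -0.17 ± 0.09 in clone 8, and CFB at log2 0.22 ± 0.07 in clone 7 and log2 -0.13 ± 0.07 in clone 8. C1R was at log2 -0.06 ± 0.08 in clone 7 and log2 -0.54 ± 0.08 in clone 8. CFI was below mock in both, by log2 -0.34 ± 0.10 in clone 7 (limma adjusted p = 0.0412, under the fold limit) and by log2 -0.88 ± 0.10 in clone 8 (limma adjusted p = 0.000183). Clone 8 minus clone 7 was then log2 -1.07 for C1S, -0.63 for C3, -0.54 for CFI, -0.48 for C1R and -0.35 for CFB, and within log2 -0.11 to 0.01 for the other 4. CD46 in clone 8 against mock was then log2 -0.19 ± 0.06 and no longer passed the adjusted p (limma adjusted p = 0.0566). These differences are a description, since the arrays were left out for their values over all genes. With both clones pooled, CFI was at log2 -0.61 without these 2 arrays.

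**Figure D5:**
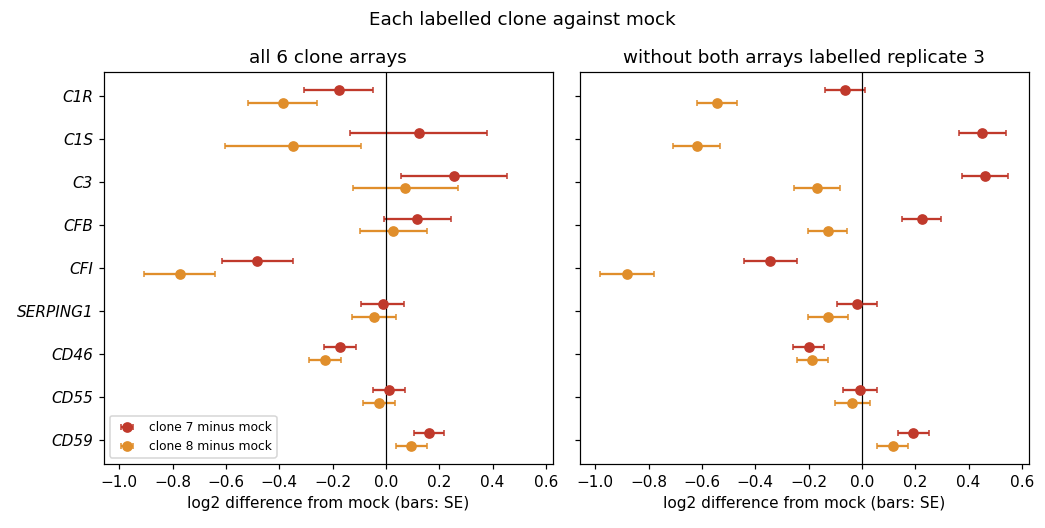
Log2 difference from mock (horizontal axis) of each member (rows) in the arrays labelled clone 7 and clone 8, with SE bars, for all 6 clone arrays and without both arrays labelled replicate 3. With all arrays the clones' bars overlap for every member but CFI, and without the 2 arrays C1S is at 0.45 in clone 7 and -0.62 in clone 8.

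Other complement genes were counted from a list of 54, of which 47 were measured by a probe set of their own. Between the clones and mock 0 were called by limma, beside 0.728% of all genes. At the adjusted p alone 1 was higher and 1 lower, beside 6.38%. The higher gene was CSMD2, a large protein with complement control repeats (log2 0.31 ± 0.04), and the lower was C1QBP, the mitochondrial protein that binds C1q (log2 -0.25 ± 0.06, limma adjusted p = 0.0252). Against wild-type the clones had 1 called, CSMD2, which was higher (log2 0.64 ± 0.04, limma adjusted p = 5.16e-06). CSMD2 averaged 8.79 ± 0.02 in clone 7 and 8.86 ± 0.03 in clone 8, against 8.52 ± 0.02 in mock and 8.19 ± 0.02 in wild-type cells (SD, n = 3 each). At the adjusted p alone 4 were higher in the clones than in wild-type, CSMD2 and the subunits of complement receptors ITGAM (log2 0.32), ITGAX (log2 0.43) and ITGB2 (log2 0.29), and 3 lower, C5, which starts the terminal pathway (log2 -0.49), factor D (CFD, log2 -0.21) and CPN2 (log2 -0.27). These 7 of 47 stand beside 9.95% of all genes, and the 1 called beside 1.58%. In mock against wild-type CSMD2 (log2 0.33) was the 1 gene past the adjusted p, beside 2.24% of all genes. In clone 8 against mock CSMD2 (log2 0.34) and CSMD1 (log2 0.26) were higher and C1QBP (log2 -0.33) and C5 (log2 -0.44) lower at the adjusted p alone, beside 5.09% of all genes. In clone 7 against mock CSMD2 (log2 0.27) was higher at the adjusted p alone, beside 3.14%. The list's median was log2 0.03 in the clones against mock and log2 0.07 in the clones against wild-type, against log2 0.01 and 0.03 over all genes.

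C4A and C4B, the near-identical genes of the fourth component, share probe sets with C4B_2. That shared level, which does not tell the copies apart and was looked at outside the rule for named genes, was 9.30, 9.44 and 8.75 in clone 7 and 8.71, 8.83 and 9.39 in clone 8, against 9.47, 9.29 and 9.29 in mock and 9.05, 9.23 and 8.99 in wild-type cells. Its highest clone levels (9.30, 9.44 and 9.39) were on the same arrays as those of C1S and C3.

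GPI anchor synthesis was read because CD55 and CD59 need the anchor. Of 25 listed genes 24 were measured, and 0 were called between the clones and mock, beside 0.728% of all genes. At the adjusted p alone 1 was higher, PIGP, a subunit of the first enzyme of the pathway (log2 0.39 ± 0.05), beside 6.38%. Against wild-type the clones had 1 called, PGAP1, which remodels the anchor and was lower (log2 -0.64 ± 0.08, limma adjusted p = 0.000468), with 3 higher and 2 lower at the adjusted p alone. The 1 of 24 called stands beside 1.58% of all genes, and the 5 at the adjusted p alone beside 9.95%. PGAP1 averaged 9.77 ± 0.13 in clone 7 and 9.44 ± 0.18 in clone 8, against 9.80 ± 0.07 in mock and 10.24 ± 0.07 in wild-type cells (SD, n = 3 each). The list's median was log2 0.06 in the clones against mock.

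Signals known to induce complement transcription, such as interleukin 6, interleukin 1 and interferon gamma with their receptors and factors, made a list of 24 with 23 measured. Between the clones and mock 0 were called by limma, with the interferon receptor chain IFNGR2 higher (log2 0.40 ± 0.06, limma adjusted p = 0.00164) and IL6R lower (log2 -0.22 ± 0.05, limma adjusted p = 0.0242) at the adjusted p alone. Over all genes, 0.728% were called in that comparison and 6.38% passed the adjusted p alone. Against wild-type 1 was called in the clones, the factor CEBPB, which was higher (log2 0.64 ± 0.15, limma adjusted p = 0.0179), beside 1.58% of all genes. At the adjusted p alone 6 were higher, CEBPB, IFNGR2, OSMR, IL6ST, IL1B and IRF1, and 1 was lower, JAK2, which is 7 of 23 beside 9.95% of all genes. The call of CEBPB was lost without any 1 of the 3 wild-type arrays (limma adjusted p = 0.0608 to 0.0807) and fell under the fold limit without clone 8 replicate 3 (log2 0.52). CEBPB averaged 10.99 ± 0.22 in clone 7 and 10.98 ± 0.44 in clone 8, against 10.92 ± 0.10 in mock and 10.35 ± 0.01 in wild-type cells (SD, n = 3 each). Mock against wild-type had 2 higher at the adjusted p alone, OSMR, the receptor of oncostatin M (log2 0.53 ± 0.09), and IL6R (log2 0.35 ± 0.06), beside 2.24% of all genes. IL6 itself, with log2 0.83 ± 0.37 for mock over wild-type, did not pass the test (limma adjusted p = 0.38). Its mock arrays (8.42 to 8.68) lay all above the wild-type arrays (7.6 to 7.85). The spread used in that test also took in the clone arrays. SDs of IL6 were 0.741 in clone 7 and 0.79 in clone 8, against 0.136 in mock and 0.127 in wild-type (n = 3 each).

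The genes beside each member were read to see whether a member moved with its neighbourhood, taking the 10 measured genes on each side. Around C3 the median difference from wild-type was log2 0.06 in mock and log2 0.10 in the clones, where C3 was at log2 1.68 and 1.84, and 1 of the 20 neighbours, CD70, was called higher in both comparisons. Around CFI the median was log2 -0.13 in the clones against mock and log2 0.06 in mock against wild-type. ELOVL6 was the 1 neighbour called, lower in the clones than in mock and also than in wild-type. Against wild-type CFI was higher in the clones (log2 0.42). In mock against wild-type, where CFI was at log2 1.05, ELOVL6 was not called. Around C1R and C1S 0 of 20 neighbours were called by limma in any of the 6 comparisons.

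For the 2 members called, the genes most like them were found by Pearson r of the log2 level over the 12 arrays. Nearest to C3 were EFEMP1, a matrix glycoprotein gene (r = 0.988), TNS3, a focal adhesion gene (r = 0.985), and CEACAM1, an adhesion receptor (r = 0.974). EFEMP1 was 3.5-fold higher in mock than in wild-type and 4-fold higher in the clones than in wild-type, and averaged 10.96 ± 0.31 in clone 7 and 10.63 ± 0.36 in clone 8, against 10.60 ± 0.08 in mock and 8.80 ± 0.13 in wild-type cells (SD, n = 3 each). Nearest to CFI were SLC39A8, a zinc and manganese carrier also on chromosome 4 (r = 0.973), the microRNA gene MIR106B (r = 0.956) and RAI14 (r = 0.929). SLC39A8 averaged 10.95 ± 0.19 in clone 7 and 10.78 ± 0.18 in clone 8, against 11.13 ± 0.07 in mock and 10.57 ± 0.05 in wild-type cells. These correlations rest on arrays that fall into groups, so that they describe a shared pattern of levels over 4 groups.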

How the data were processed

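Total RNA from 12 cultures was measured on 1-colour arrays. The deposited values were log2 levels, 1 per probe set and array, summarised and normalized by the authors, with Partek named in the submitters' processing notes, and the version and method not given in the sources used here. Of 33297 probe sets 0 values were missing, and the table was used as deposited. There is no detection call or read depth, and precision is limited by the number of arrays.

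Groups were taken from the sample titles. Probe sets were named through the platform annotation (19460 with 1 symbol, 1754 with several, 12083 with none listed) and a RefSeq gene table (GRCh38.p14). Per gene, the brightest single-symbol probe set by its 12-array mean was used, which left 18417 genes.

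The 4 groups were fitted per gene with limma 3.58.1 (lmFit, contrasts.fit, eBayes) in R 4.3.3, in 6 contrasts, with Benjamini-Hochberg adjustment over all genes. Errors on differences are standard errors, with limma's 95% intervals, and errors on levels are SDs. The procedure was tested on simulated data. The members and gene lists were chosen with earlier results of these data known. Named were the 9 members, listed genes called in any contrast (at most 6 a list, largest first; genes past the adjusted p alone were named after their values were seen) and, per called member, the 3 genes with the highest r. Alternatives were quantile normalization, median centring, a filter on dim genes, the mean of a gene's probe sets, a fit of the compared arrays alone, a replicate block, trended robust eBayes, array weights, no fold limit and leaving out each array. Leaving out both clone arrays labelled replicate 3 was added after seeing the data. Promoter sequences are from RefSeq. Proteins were not analysed here.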

Additional observations from a re-analysis of the deposited data

How the results depend on the processing

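Counts of the 9 members called moved little. In 88 of 101 pairs of a comparison and an alternative the count was unchanged. With array weights the clones against wild-type had 2 members called (C1S and C3), beside 349 of 18417 genes. With no fold limit there were 2 in the clones against mock, beside 6.38% of all genes, and 2 in clone 8 against mock, beside 5.09% (CD46 and CFI in each). The clones against wild-type then had 2 (C3 and CFI), beside 9.95%. Leaving out both clone arrays labelled replicate 3 was chosen after seeing the data, as was the fold limit's removal beyond the clones against mock. Without these arrays, clone 8 against mock had 2 members called (C1S and CFI), beside 379 of 18417 genes. Clone 8 against clone 7 then had 2 (C1S and C3), beside 617 genes. With 1 array left out in turn, the count ran from 0 to 1 in the clones against mock (0 without clone 7 replicate 3, clone 8 replicate 1 or mock replicate 1). It ran from 0 to 1 in clone 7 against mock (1, CFI, without clone 7 replicate 2, beside 100 of 18417 genes). In the clones against wild-type it ran from 1 to 2 (2, C1S and C3, without clone 7 replicate 3, beside 308 genes). In mock against wild-type 3 members were called (C1S, C3 and CFI) with array weights, beside 201 of 18417 genes. The same 3 were called in the fit of the compared arrays alone, beside 200 genes. Of the listed genes that are not members, PGAP1 in the clones against wild-type dropped under the fold limit without clone 8 replicate 1 (log2 -0.58). CEBPB did so too without both arrays labelled replicate 3 (log2 0.58). The causes were not tested.

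Differences that changed sign were not called in any setting, and after the change they reached log2 -0.167 (C3 in clone 8 against mock). They were CD55 under quantile normalization (log2 0.03 in the clones and in clone 8 against mock), CFB in clone 8 against mock under median centring (-0.007) and array weights (-0.003), CD55 in clone 7 against mock under array weights (-0.005), and, without both arrays labelled replicate 3, CD55 in clone 7 against mock (-0.007), C3 (-0.167) and CFB (-0.129) in clone 8 against mock and CD46 in clone 8 against clone 7 (0.013). With 1 array left out, sign changes lay within these ranges (log2). In the clones against mock they were -0.248 to 0.052 for C1S, -0.017 to 0.011 for CD55, -0.005 to 0.127 for CFB and -0.07 to 0.014 for SERPING1. In clone 7 against mock they were -0.073 to 0.451 for C1S, -0.007 to 0.03 for CD55 and -0.047 to 0.027 for SERPING1. In clone 8 against mock they were -0.167 to 0.22 for C3, -0.129 to 0.135 for CFB and -0.128 to 0.041 for SERPING1. In clone 8 against clone 7 they were -0.248 to 0.016 for CFB and -0.115 to 0.054 for SERPING1, in the clones against wild-type -0.016 to 0.128 for C1R and -0.031 to 0.005 for CD46, and in mock against wild-type -0.006 to 0.049 for CD59.

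Over all genes, with the fold limit kept, counts called ran from 107 to 205 in the clones against mock (134 as reported), 89 to 399 in clone 7 against mock (129), 88 to 379 in clone 8 against mock (140), 96 to 201 in mock against wild-type (124) and 228 to 349 in the clones against wild-type (291). With no fold limit they were 1175, 579, 938, 413 and 1832 in these 5 comparisons as listed, and 0 in clone 8 against clone 7. In clone 8 against clone 7 the count with the limit was 617 without both arrays labelled replicate 3 and 0 in every other setting. Replicate numbers did not pair the cultures, with correlations of the deviations of same-numbered arrays between -0.83 and 0.45. With the replicate number as a block, the members called were as reported in all 6 comparisons, with 1 in the clones against mock (CFI, log2 -0.63 ± 0.12, limma adjusted p = 0.02). At the adjusted p alone the block ended the passes of CD46 in the clones against mock (limma adjusted p = 0.0763) and in clone 8 against mock (0.0911) and CFI in the clones against wild-type (0.0634), and no other call of a member changed. Signal over background was not given, which limits dim genes such as CFI.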
